A study of Saccharomyces cerevisiae with 8 samples.

Results

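The genes described here encode the proteins of the cytosolic ribosome of Saccharomyces cerevisiae. They are the gene probes whose standard symbol is RPL or RPS with a number, plus RPP0, RPP1A, RPP1B, RPP2A and RPP2B. The symbols came from the reference gene table, and no expression value was used to choose them. There are 137 of them among the 6256 gene probes of the array: 56 of the small subunit, 76 of the large subunit and 5 of the ribosomal stalk. Of these, 118 form 59 pairs of A and B paralogs and 19 have no paralog. All 137 passed the filter on dim probes.

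RNA from yeast of a fermentation assay tied by its title to sugarcane ethanol was measured on 8 Agilent 2-colour arrays. The 5 samples taken after 6 h (T6h) were 2 of CAT-1, 2 of JP1 and 1 of BY4741. The 3 samples taken at the start (T0h) were 1 each of CAT-1, JP1 and PE-2. CAT-1, JP1 and PE-2 are diploid industrial yeasts from Brazilian mills, JP1 homothallic and the other 2 heterothallic. BY4741 is a haploid laboratory strain without working HIS3, LEU2, MET17 and URA3. All cells had been grown in repeated batches of rich glucose medium before the assay. Each sample was labelled in red (Cy5) and hybridised with the same BY4741 T0h reference in green (Cy3), so every value is a log2 ratio to that reference. PE-2 was not measured at T6h, and BY4741 at T0h was measured as the green reference only. The labelling protocol speaks of a dye swap between industrial strains, while the dye labels give red for the sample and green for the reference on all 8 arrays and were followed here. Without swapped arrays a dye effect of a gene cannot be told apart from a difference between a strain and the reference. The ratios are relative to the other probes of an array: less RNA per cell and fewer cells of a kind cannot be told apart.

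A yeast ribosome holds 1 copy of most of its proteins, and the cell makes them in matched amounts. Most of the genes are bound by Rap1 with Fhl1 and Ifh1, and they are switched on together in rich medium through the TOR and protein kinase A pathways and off together in starvation and stress. Many exist as A and B paralogs that encode identical or nearly identical proteins, a remnant of an ancient duplication of the whole genome. The stalk is a flexible arm of the large subunit that recruits translation factors: RPP0 is its base, and the acidic proteins sit on it as dimers, Rpp1A with Rpp2B and Rpp1B with Rpp2A.

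The genes were well measured in the red sample channel, where 131 of 137 were above background on all 8 arrays, and no spot was saturated. The 6 arrays of slide 1 gave correlations of 0.987 to 0.994 between the 2 spots of these genes. Slide 2 held CAT-1 T6h replicate 5 and JP1 T6h replicate 4, and its green channel was dim: 30 and 64 of the 137 genes were above background in green, with spot correlations of 0.431 and 0.541. The red signal of the genes was also low on both CAT-1 T6h arrays, with medians of 103.5 and 111.25 brightness units, against 734.5 to 3413 on the other arrays. HIS3, LEU2, MET17 and URA3 were between 0.77 and 8.89 on every industrial array and between -0.19 and 0.02 on the BY4741 T6h array, so these genes, which BY4741 lacks in working form, read the same way on all 7 industrial arrays. In the authors' deposited value table, 3 of 8 columns were closest to the array they are named for. Its JP1 T0h column followed the JP1 T6h replicate 1 array (r 0.9998) and its CAT-1 T0h column the CAT-1 T6h replicate 2 array (r 0.9998). All values here follow the scanner files, and the value table entered no comparison. The samples are biological replicates according to the series design. Whether they came from separate cultures is not given in the sources used here, so p-values measure the spread between these samples.

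As a group, the ribosomal protein genes stood highest on the BY4741 T6h array, next on the JP1 T6h arrays, and near the reference on the CAT-1 T6h arrays and at T0h. Their median log2 ratio was -0.04 and -0.24 on the CAT-1 T6h arrays, 0.97 and 0.72 on the JP1 T6h arrays, and 1.89 on the BY4741 T6h array. At T0h it was -0.21 in CAT-1, -0.09 in JP1 and -0.01 in PE-2. The medians of all 5938 probes tested lay between -0.02 and 0.01 on every array. The array medians thus averaged 0.66 ± 0.85 at T6h (SD, n = 5) and -0.10 ± 0.10 at T0h (SD, n = 3), and the 2 CAT-1 T6h medians lay within the range of the T0h arrays or just below it. Of the 137 genes, 66 and 48 were above 0 on the CAT-1 T6h arrays, 121 and 120 on the JP1 T6h arrays and 134 on the BY4741 T6h array, against 56 in CAT-1, 63 in JP1 and 68 in PE-2 at T0h.

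**Figure D1:**
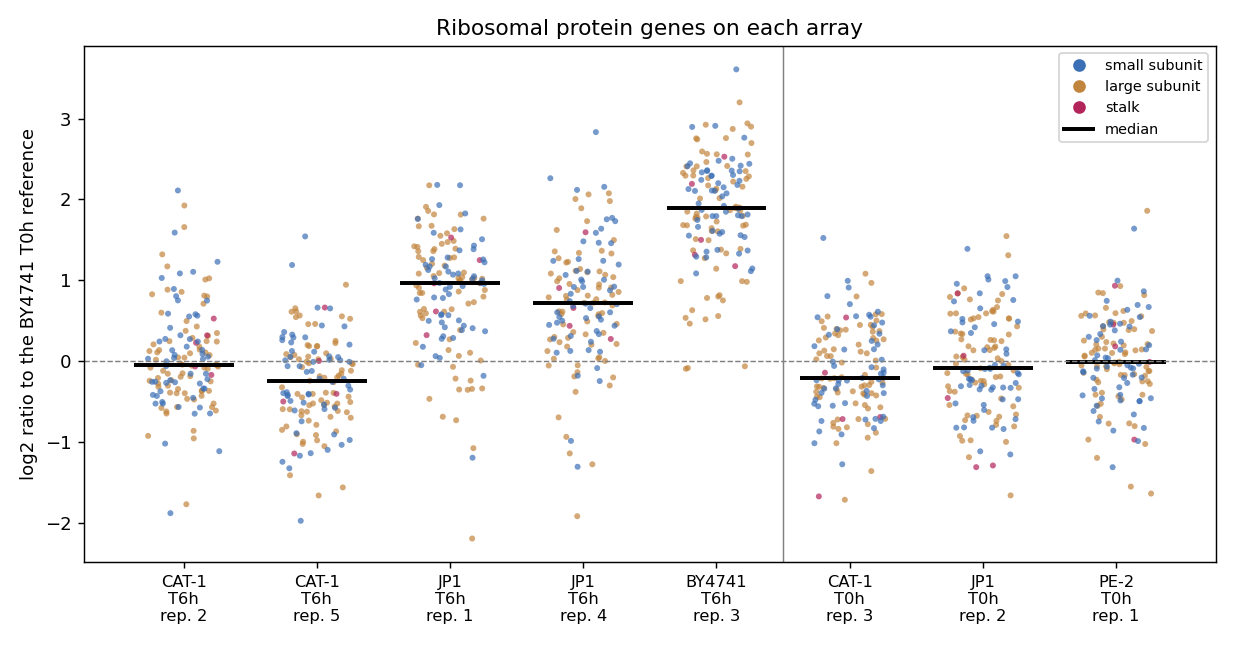
Log2 ratio of each of the 137 ribosomal protein genes to the BY4741 T0h reference (y axis) on each of the 8 arrays (x axis), T6h to the left of T0h. Each point is 1 gene, coloured by subunit, and the black bars are medians; they reach 1.89 on the BY4741 T6h array and lie between -0.24 and -0.01 on the CAT-1 T6h and T0h arrays.

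The first comparison set all 5 T6h arrays against all 3 T0h arrays and asked which genes changed over the fermentation. The groups also differ in strain, since PE-2 is in the T0h group alone and BY4741 in the T6h group alone. 9 of the 137 ribosomal protein genes rose and 0 fell (limma, adjusted p under 0.05). Among all probes tested, 9.72% rose and 5.93% fell, so the 6.57% of ribosomal protein genes that rose is below the share of all probes. An unadjusted limma p under 0.05 was found for 39 of the 137 genes and for 1819 of the 5938 probes, similar shares. The risers were 5 small subunit genes (RPS7B, RPS26A, RPS27B, RPS15 and RPS14A), 2 large subunit genes (RPL33A and RPL33B) and 2 stalk genes (RPP1B and RPP2A). The median difference over the 137 genes was 0.73 on the log2 scale, against 0.001 over all probes, and 122 genes were above 0.

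RPS7B, a small subunit protein gene, had the largest difference. Its log2 ratios were 1.23 and 1.54 in CAT-1, 2.18 and 2.83 in JP1 and 1.56 in BY4741 at T6h, against -0.37 in CAT-1, -0.82 in JP1 and 0.24 in PE-2 at T0h. All 5 T6h values lay above all 3 T0h values, and the difference was 2.18 ± 0.39 (SE; limma adjusted p = 0.00364). The paralogs RPL33A and RPL33B, large subunit protein genes, were called together. RPL33A read 1.66 and 0.55 in CAT-1, 1.76 and 1.73 in JP1 and 2.36 in BY4741 at T6h, against 0.06 in CAT-1, -0.11 in JP1 and 0.22 in PE-2 at T0h, a difference of 1.56 ± 0.37 (SE; limma adjusted p = 0.0146). RPL33B read 1.93 and 0.95 in CAT-1, 2.18 and 1.50 in JP1 and 3.20 in BY4741 at T6h, against 0.29 in CAT-1, 0.33 in JP1 and 0.47 in PE-2 at T0h, a difference of 1.58 ± 0.43 (SE; limma adjusted p = 0.0281). Both paralogs were lowest at T6h on the CAT-1 array of slide 2, and neither overlapped its T0h values.

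The other called genes of the small subunit were RPS26A (1.54), whose protein lies at the exit of the messenger RNA channel, RPS27B (1.52), RPS15 (1.43) and RPS14A (1.25). RPS15 was the only called gene whose groups overlapped: CAT-1 T6h replicate 5 read -0.61, below the -0.49 of PE-2 at T0h. In all, 15 of the 137 genes (10.9%) had every T6h value above every T0h value, against 13.2% of all probes, and 0 had every T6h value below, against 11.8%. The calls were few and depended on the arrays and the scaling. All 9 kept their sign under median centring in place of loess, but none passed. RPS7B alone passed without the JP1 T0h array or without the CAT-1 T0h array, 4 genes rose without the PE-2 T0h array, 4 without JP1 T6h replicate 1 and 5 without JP1 T6h replicate 4, while 26 rose without CAT-1 T6h replicate 5 and 15 on slide 1 alone. With slide as a block 11 rose, 7 of the 9 among them, and RPS15 and RPS14A no longer passed (limma adjusted p = 0.0628 and 0.0806). RPS14A did not pass on slide 1 alone either. The shares of all probes called in these settings are not given here, so the counts are not set against other probes.

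**Figure D2:**
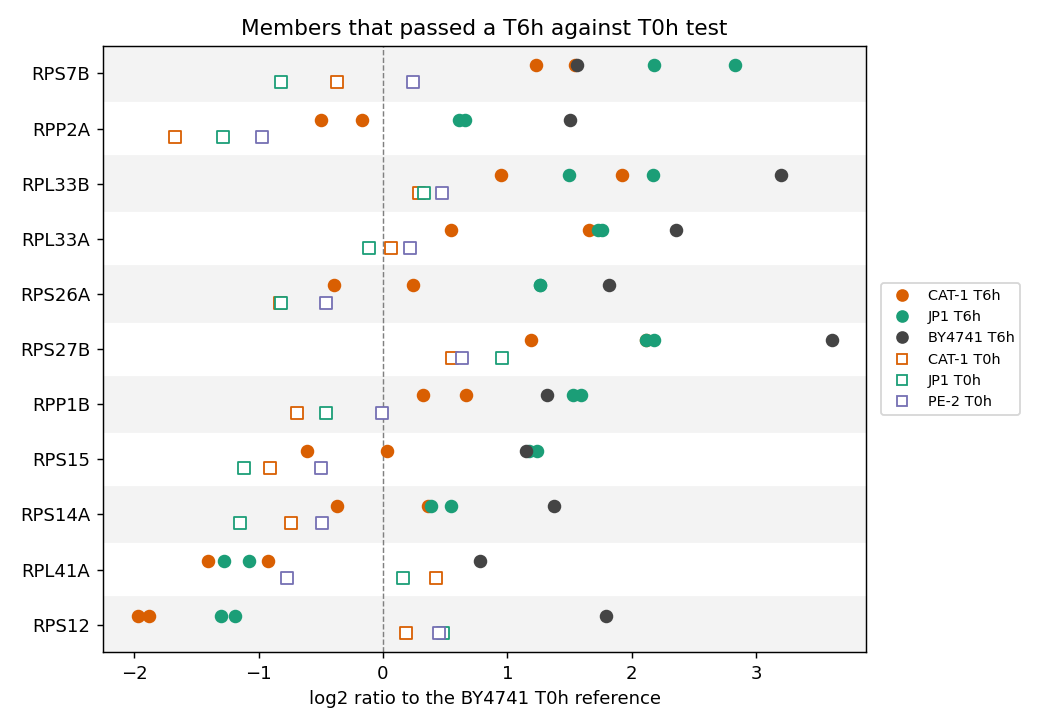
Log2 ratio to the BY4741 T0h reference (x axis) of the 9 genes that rose at T6h over all arrays and the 2 that fell in JP1 and CAT-1 (rows). Filled circles are T6h arrays and open squares T0h arrays, coloured by strain; RPS12 and RPL41A are below 0 on the 4 industrial T6h arrays and above 0 on the BY4741 T6h array.

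The second comparison was of T6h with T0h within the 2 strains seen at both times, CAT-1 and JP1, in a fit that also held the strain. 20 ribosomal protein genes rose and 2 fell (limma, adjusted p under 0.05), where 12.7% of all probes rose, 6.96% fell and 19.7% passed either way. The 22 calls are 16.1% of the 137 genes, below the share of all probes. The median difference was 0.48, and 106 of the 137 genes were above 0. RPS7B rose most, by 2.54 ± 0.39 (SE; adjusted p = 0.00138). Others among the 12 largest were the stalk genes RPP2A (1.63), RPP1B (1.60) and RPP0 (1.44), the small subunit genes RPS15 (1.47) and RPS26A (1.42), and the large subunit genes RPL33A (1.45), RPL33B (1.33) and RPL37A (1.22). RPS15 encodes a protein beside the decoding site.

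The 2 genes that fell had every T6h value below both T0h values in both strains. RPS12, a small subunit protein gene without a paralog, read -1.88 and -1.97 in CAT-1 and -1.19 and -1.30 in JP1 at T6h, against 0.19 in CAT-1 and 0.48 in JP1 at T0h. The difference was -1.92 ± 0.29 (SE; limma adjusted p = 0.00117). On the BY4741 T6h array it was 1.79. RPL41A, which encodes the smallest protein of the ribosome, read -0.92 and -1.41 in CAT-1 and -1.07 and -1.27 in JP1 at T6h, against 0.43 in CAT-1 and 0.16 in JP1 at T0h. The difference was -1.47 ± 0.30 (SE; limma adjusted p = 0.0066), and the BY4741 T6h array gave 0.78. Its paralog RPL41B read -0.47 and -0.90 in CAT-1 and -0.35 and 0.00 in JP1 at T6h, and did not pass. RPS12 was the only one of the 22 calls to pass without the JP1 T0h array, where 0 genes rose. 5 rose without JP1 T6h replicate 4, 6 without CAT-1 T6h replicate 2 and 13 without JP1 T6h replicate 1. None of the 22 passed under median centring, although all 22 kept their sign, and 4 rose and 1 fell with the scanner software's own log ratio. With slide as a block 17 of the 22 still passed. These counts, too, stand without the share of all probes called in the same settings.

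The strains differed in how far the genes moved. In CAT-1 the mean of the 2 T6h arrays minus the T0h array had a median of 0.049 over the 137 genes, with 73 above 0 and 64 below. In JP1 the median was 0.70, with 119 above 0. On the BY4741 T6h array the ratio to BY4741's own T0h reference had a median of 1.89, with 134 above 0. Over all probes the median was 0.002 in CAT-1, 0.001 in JP1 and -0.01 in BY4741. There were 71 genes higher in all 3 strains (51.8%; 21.2% of all probes) and 45 higher in JP1 and BY4741 and lower in CAT-1 (32.8%; 6.74% of all probes). Another 17 were higher in BY4741 and lower in both industrial strains (12.4%; 14.4% of all probes), and 0 were lower in all 3, against 22.2% of all probes. For 95 genes (69.3%; 17.2% of all probes) the change was lowest in CAT-1, higher in JP1 and highest in BY4741. In CAT-1 both T6h arrays were above the T0h array for 47 genes (34.3%; 39% of all probes) and below it for 43 (31.4%; 38.7% of all probes). In JP1 both were above for 107 genes (78.1%; 38.6% of all probes) and below for 15 (10.9%; 38.9% of all probes).

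The BY4741 values come from 1 array and have no replicate check. T6h was in red and T0h in green, so a dye effect of a gene cannot be told apart from its change. 122 of the 137 genes were at least 2-fold higher at T6h than in the T0h reference, against 15.6% of all probes, and 0 were at least 2-fold lower, against 13.1%. All 56 small subunit genes and all 5 stalk genes were past 2-fold, with a median of 2.06 for the small subunit and 1.50 for the stalk, and so were 61 of the 76 large subunit genes, with a median of 1.86. The highest values were those of RPS27B (3.61), RPL33B (3.20) and RPL21B (2.94), and the lowest those of RPL15B (-0.09), RPL7A (-0.08) and RPL3 (-0.06), whose protein reaches the site of peptide bond formation.

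**Figure D3:**
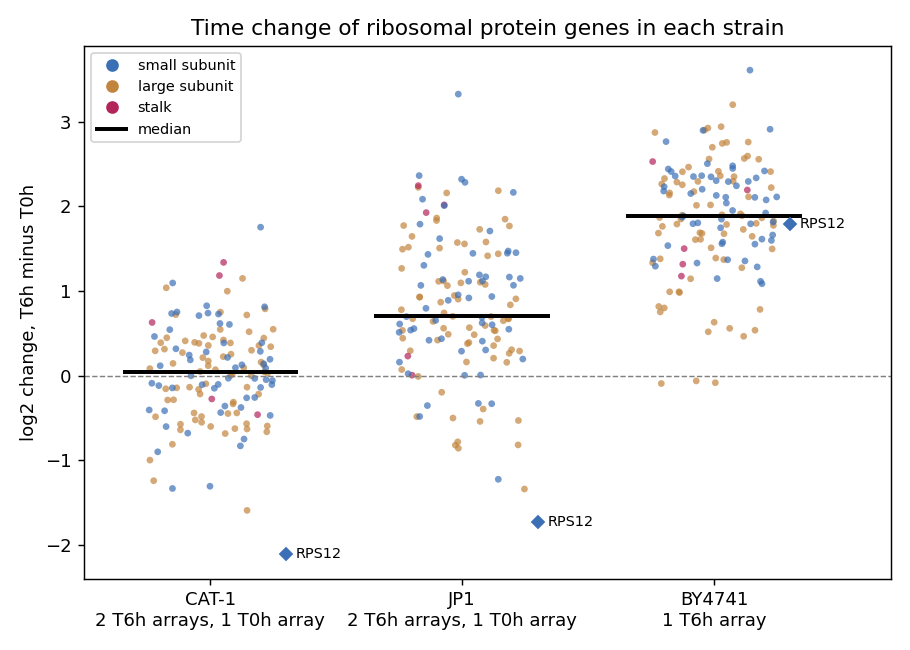
Change of each ribosomal protein gene between T6h and T0h on the log2 scale (y axis) in CAT-1, JP1 and BY4741 (x axis). Each point is 1 gene, coloured by subunit, bars are medians (0.049, 0.70 and 1.89), and the diamond marks RPS12, which is at -2.11 in CAT-1, -1.73 in JP1 and 1.79 in BY4741.

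A test added after the data were seen took the change over time in CAT-1 and JP1 minus that in BY4741. BY4741's change is the ratio of T6h in red to T0h in green, while CAT-1 and JP1 were read in red at both times. A dye effect of a gene, or a deviation of the reference, thus cannot be told apart from BY4741's change in this test. 54 ribosomal protein genes (39.4%) had a lower change in the industrial strains and 0 a higher one (limma, adjusted p under 0.05), against 5.25% and 6.74% of all probes (12% either way). The median difference was -1.55, with 125 of the 137 genes below 0. The 54 were 24 of 56 small subunit genes, 28 of 76 large subunit genes and 2 of 5 stalk genes. RPS12 had the largest difference (-3.71 ± 0.44, SE; adjusted p = 0.00221). The next were RPL22B (-3.71), RPL43B (-3.30), RPS3 (-3.15), RPS31 (-3.05), RPS30A (-2.87), RPS9A (-2.75), RPL35B (-2.71), RPS28B (-2.69), RPL35A (-2.69), RPL21B (-2.67) and RPP2B (-2.64). RPS3 encodes a protein at the entry of the messenger RNA channel, and RPS31 one that is made as a fusion to ubiquitin.

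RPS3 shows the pattern in its values. It read -0.57 and -1.14 in CAT-1 and 0.41 and 0.11 in JP1 at T6h, against 2.24 in BY4741 at T6h, and 0.48 in CAT-1 and 0.74 in JP1 at T0h. RPS31 read 0.04 and -0.51 in CAT-1 and 1.03 and 0.71 in JP1 at T6h, against 2.91 in BY4741 at T6h, and 0.44 in CAT-1 and 0.46 in JP1 at T0h. All industrial T6h values of both genes lay below the BY4741 value. In CAT-1 and JP1 no T6h value of RPS3 was above its own strain's T0h value, and for RPS31 both were above it in JP1 and below it in CAT-1, while in BY4741 both genes were above the T0h reference. This comparison rests on the single BY4741 array, whose spread is assumed to be that of the other groups, and its count fell to 5 on slide 1 alone (RPS12, RPS3, RPS30A, RPL22B and RPL43B), to 10 without the CAT-1 T0h array, to 24 without the JP1 T0h array and to 29 without CAT-1 T6h replicate 5. It was 0 under median centring and 0 with the software's own log ratio, although all 54 kept their sign under both. With slide as a block 41 of the 54 still passed.

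At T6h alone, the 4 industrial arrays were set against the BY4741 array. The spread in this fit comes from the industrial arrays alone. With no term for CAT-1 against JP1, it also holds the difference between these strains. No ribosomal protein gene and no probe of the array passed (limma; 0% of all probes either way), but 90 of the 137 genes and 894 of the 5938 probes had an unadjusted p under 0.05. The median difference was -1.57, and 134 of 137 genes were below 0. For 124 genes (90.5%) all 4 industrial values lay below the BY4741 value, against 25.4% of all probes, and for 0 they lay above it, against 28.3%. RPS12 came closest to the threshold (-3.38 ± 0.48, SE; limma adjusted p = 0.0537), followed by RPL30 (-2.54), RPS26B (-2.88), RPL26B (-2.54) and RPL15A (-2.42), which shared an adjusted p of 0.0601. With 1 industrial array left out, the median ran from -1.73 to -1.40. On slide 1 alone the median was -1.42 and 0 passed.

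CAT-1 was set against JP1 with time as a term. No ribosomal protein gene passed (limma; 0.0674% of all probes were higher and 0.0337% lower). An unadjusted p under 0.05 was found for 55 of the 137 genes and 903 of the 5938 probes. The median difference was -0.65, with 128 genes below 0, and the smallest adjusted p among them was 0.107, for RPL27A (-1.15 ± 0.28, SE). At T6h both CAT-1 arrays lay below both JP1 arrays for 107 genes (78.1%), against 22.2% of all probes, and above them for 2, against 27.4%. The red channel alone gave 14 lower genes, and 5 were lower without the JP1 T0h array and 5 without the CAT-1 T0h array. These counts stand without the share of all probes called in the same settings. On slide 1 alone the median was -0.49. The red signal of the genes was lowest on both CAT-1 T6h arrays, and its part in the difference was not tested.

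The difference between the changes over time of CAT-1 and JP1 also gave no call (limma; 0% of all probes either way), with 22 of the 137 genes and 341 of all probes at an unadjusted p under 0.05. The median difference was -0.79, and 120 genes were below 0. The paralogs RPS23A and RPS23B, whose protein forms part of the decoding centre, had differences of -2.22 and -2.35 with an adjusted p of 0.511. RPS23A read -1.11 and -1.17 in CAT-1 and 1.02 and 0.99 in JP1 at T6h, against -0.39 in CAT-1 and -0.47 in JP1 at T0h. The 2 strains were close at T0h and more than 2 log2 units apart at T6h. In the red channel alone 34 genes had a lower change in CAT-1, with a median of -1.10. The share of all probes called in that setting is not given here, so the count is not set against other probes.

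At the start of the assay the group as a whole stood near the BY4741 reference, with members on both sides. In the test of the 3 industrial T0h ratios against 0, 21 genes were higher and 17 lower than in BY4741 at T0h (limma, adjusted p under 0.05), against 15.2% and 17.5% of all probes. The 38 calls are 27.7% of the 137 genes, where 32.7% of all probes were called. The median was -0.13, and it was 0.0070 under median centring. All 3 values were above 0 for 41 genes and below 0 for 49, 29.9% and 35.8% of the 137, where both shares were 32% among all probes. All 3 arrays lie on slide 1, are of 3 different strains and share the BY4741 T0h reference. The test leaves out the spread of that reference, so a deviation of the reference would read as a difference on all 3 arrays.

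The highest of the called genes were RPS9A (1.40), RPL18B (1.25), RPS30A (0.92), RPS27A (0.89), RPL22B (0.87), RPP1A (0.77), RPS17B (0.72), RPS27B (0.72), RPS3 (0.69), RPL9B (0.69), RPL9A (0.68) and RPL40B (0.67). RPS9A read 1.52 in CAT-1, 1.05 in JP1 and 1.64 in PE-2 (1.40 ± 0.18, SE; limma adjusted p = 0.00393). The lowest were RPL15A (-1.67), RPP2A (-1.31), RPL34A (-1.10), RPL31B (-1.08), RPS20 (-1.03), RPS15 (-0.84), RPS14A (-0.79), RPS16A (-0.78), RPL34B (-0.76), RPS26A (-0.70), RPS26B (-0.70) and RPL26B (-0.70). RPL15A read -1.71 in CAT-1, -1.66 in JP1 and -1.64 in PE-2 (-1.67 ± 0.15, SE; limma adjusted p = 0.00192). RPP2A, RPS15, RPS14A and RPS26A were thus low at T0h and also among the genes that rose by T6h; the comparisons share the T0h arrays. Without the JP1 T0h array 9 genes were higher and 15 lower. Without the CAT-1 T0h array 2 were higher and 2 lower, with RPS9A, RPL22B, RPL15A and RPP2A still called. Shares of all probes called without these arrays are not given here.

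Of the 5 stalk genes, RPP1B and RPP2A, which encode the partners of 1 dimer, rose in JP1 and CAT-1, and so did RPP0. RPP1B read 0.32 and 0.66 in CAT-1, 1.53 and 1.59 in JP1 and 1.32 in BY4741 at T6h, against -0.69 in CAT-1, -0.46 in JP1 and -0.01 in PE-2 at T0h. RPP2A read -0.17 and -0.50 in CAT-1, 0.62 and 0.66 in JP1 and 1.50 in BY4741 at T6h, against -1.67 in CAT-1, -1.29 in JP1 and -0.97 in PE-2 at T0h. All T6h values of both genes lay above all T0h values. RPP0 read 0.23 and -0.40 in CAT-1, 0.96 and 0.91 in JP1 and 1.18 in BY4741 at T6h, against -0.72 in CAT-1, -1.31 in JP1 and 0.18 in PE-2 at T0h.

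RPP1A and RPP2B, the partners of the other dimer, had time differences of -0.14 ± 0.34 (SE; limma adjusted p = 0.824) and -0.12 ± 0.36 (SE; limma adjusted p = 0.861) in JP1 and CAT-1. RPP1A read 0.53 and 0.00 in CAT-1, 1.25 and 0.44 in JP1 and 2.19 in BY4741 at T6h, against 0.54 in CAT-1, 0.84 in JP1 and 0.93 in PE-2 at T0h. RPP2B read -0.07 and -1.14 in CAT-1, 0.32 and 0.27 in JP1 and 2.53 in BY4741 at T6h, against -0.14 in CAT-1, 0.07 in JP1 and 0.45 in PE-2 at T0h. Their industrial T6h values overlapped the T0h values, while BY4741 was highest. In the added test their time change was lower in the industrial strains than in BY4741, by -2.33 ± 0.52 (SE; limma adjusted p = 0.0193) for RPP1A and -2.64 ± 0.55 (SE; limma adjusted p = 0.0161) for RPP2B. The same differences were 0.28 for RPP1B, 0.26 for RPP0 and 0.13 for RPP2A, with adjusted p of 0.737 or more. The dimers were not tested against each other, and the calls of RPP1A and RPP2B did not hold on slide 1 alone.

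Paralogs read alike to differing degrees. Over the 59 pairs the mean absolute difference between A and B over the 8 arrays had a median of 0.44 log2 units and ran between 0.04 and 1.51; 36 pairs were under 0.5 and 4 at least 1. The correlation of A with B over the 8 arrays, which share 1 reference, had a median of 0.889. Over the 9257 pairs of ribosomal protein genes that are not paralogs, the medians were 0.64 log2 units and a correlation of 0.785. The probe sequences were not analysed here, and how far a probe reads the RNA of the other paralog was not tested. The 3 closest pairs were RPL1 (0.04), RPL4 (0.12) and RPL35 (0.20). RPL1A read 1.83 and RPL1B 1.85 on the BY4741 T6h array, and -0.63 and -0.69 on CAT-1 T6h replicate 5, which are the extremes of both genes.

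Among the 6 pairs farthest apart were RPL15 (1.51), RPL31 (1.15), RPS7 (1.03), RPS14 (0.99) and RPL36 (0.97). In RPL36, A was above B on all 8 arrays, by 0.40 on the BY4741 T6h array and by 1.39 and 1.61 on the CAT-1 T6h arrays. RPL31 was farthest apart on the JP1 T6h arrays: A minus B was 2.54 and 2.51 in JP1, 1.20 in BY4741 and 0.44 and -0.11 in CAT-1 at T6h, against 0.61 in CAT-1, 0.50 in JP1 and 1.27 in PE-2 at T0h. RPL31A gave 1.81 and 1.37 on the JP1 T6h arrays, where RPL31B gave -0.73 and -1.14. RPL31B was above background in red on 6 of the 8 arrays, the JP1 T6h arrays among them. The arrays where it was not were those of CAT-1 at T6h, so the limit bears on the CAT-1 T6h differences. Whether the gap between A and B differs between strains or times was not tested.

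RPS7 was not on 1 side throughout. At T6h B was above A in CAT-1 (A minus B -0.68 and -2.12) and in JP1 (-1.01 and -1.37), and A was above B in BY4741 (1.21). At T0h A minus B was -0.37 in CAT-1, 0.71 in JP1 and -0.79 in PE-2, so JP1 had A above B at T0h and below it at T6h. RPS7A read 0.55 and -0.58 in CAT-1, 1.17 and 1.47 in JP1 and 2.76 in BY4741 at T6h, against -0.74 in CAT-1, -0.11 in JP1 and -0.55 in PE-2 at T0h. RPS7A was thus highest in BY4741 and RPS7B highest in JP1. Among all 59 pairs, A was above B on all 8 arrays in 4 and B above A in 9.

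The calls of the 2 genes of a pair were also counted. Over all arrays, both genes rose at T6h in 1 pair (RPL33) and 1 gene alone in 6. In JP1 and CAT-1 both rose in 3 pairs (RPL16 and RPL33 among them), 1 gene alone passed in 12 and neither in 44. At T0h both were higher than BY4741 in 3 pairs and both lower in 2, 1 gene alone was called in 20, and RPS14 was called in opposite directions. RPS14A was at -0.79 and RPS14B at 0.52 (limma adjusted p = 0.0199 and 0.0455). In the added test both genes of 13 pairs had a lower change in the industrial strains and 1 gene alone did in 17. That 1 gene passed and the other did not is no test of their difference, which was not tested.

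**Figure D4:**
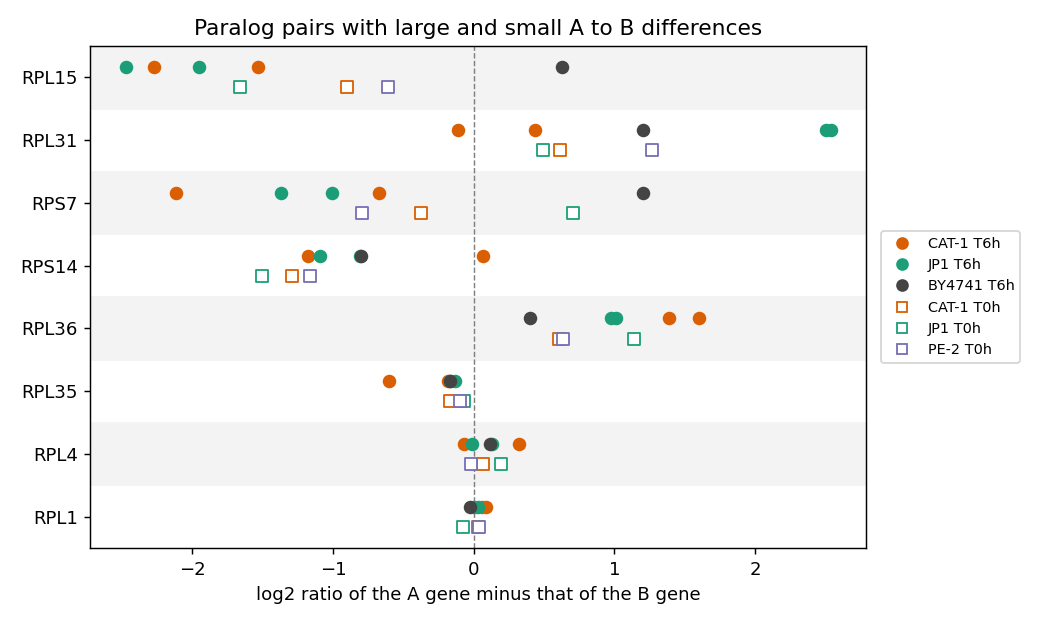
Log2 ratio of the A gene minus that of the B gene (x axis) for 5 of the 6 pairs with the largest and the 3 with the smallest mean absolute difference (rows), on each of the 8 arrays. Filled circles are T6h arrays and open squares T0h arrays, coloured by strain; RPL36 lies above 0 on all 8, RPS7 is above 0 on the BY4741 T6h and JP1 T0h arrays, and RPL1 stays within 0.09 of 0.

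Members that depart from the group were sought as genes on 1 side of the median of the 137 genes by at least 1 log2 unit on all 8 arrays. RPL15A, which encodes an essential protein of the large subunit, was the only such gene. It lay below the median by 1.73 and 1.42 in CAT-1, by 3.16 and 2.64 in JP1 and by 1.35 in BY4741 at T6h, and by 1.51 in CAT-1, 1.57 in JP1 and 1.63 in PE-2 at T0h. Its log2 ratios were -1.77 and -1.66 in CAT-1, -2.19 and -1.92 in JP1 and 0.54 in BY4741 at T6h, against -1.71 in CAT-1, -1.66 in JP1 and -1.64 in PE-2 at T0h. All 7 industrial values were thus between -2.19 and -1.64 at both times, and the BY4741 T6h value was the only one above 0. The sequence under this probe was not compared between the strains, and its part in the industrial values was not tested. Against the median of the 30 ribosomal protein genes left by a filter that asks for both channels above background on every array, RPL15A was 0.92 below on CAT-1 T6h replicate 5 and at least 1.32 below on the other 7 arrays, so that no gene met the limit of 1 there.

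RPL15B, the paralog of RPL15A, did not share this position. It read -0.24 and 0.61 in CAT-1, -0.24 and 0.56 in JP1 and -0.09 in BY4741 at T6h, against -0.81 in CAT-1, 0.00 in JP1 and -1.02 in PE-2 at T0h. On the BY4741 T6h array it was the lowest of the 137 genes and RPL15A was above it, while on the 7 industrial arrays RPL15A was the lower of the 2. The correlation of the 2 genes over the 8 arrays was 0.006, the lowest of the 59 pairs.

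At a distance of 0.5 log2 units, RPS27B joined RPL15A, above the median by 2.15 and 1.43 in CAT-1, 1.21 and 1.40 in JP1 and 1.72 in BY4741 at T6h, and by 0.76 in CAT-1, 1.05 in JP1 and 0.64 in PE-2 at T0h. Just short of it were RPS2, below by 0.48 or more, and RPL33B, above by 0.42 or more. In all, 28 of the 137 genes kept to 1 side of the median on all 8 arrays, 14 above and 14 below.

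**Figure D5:**
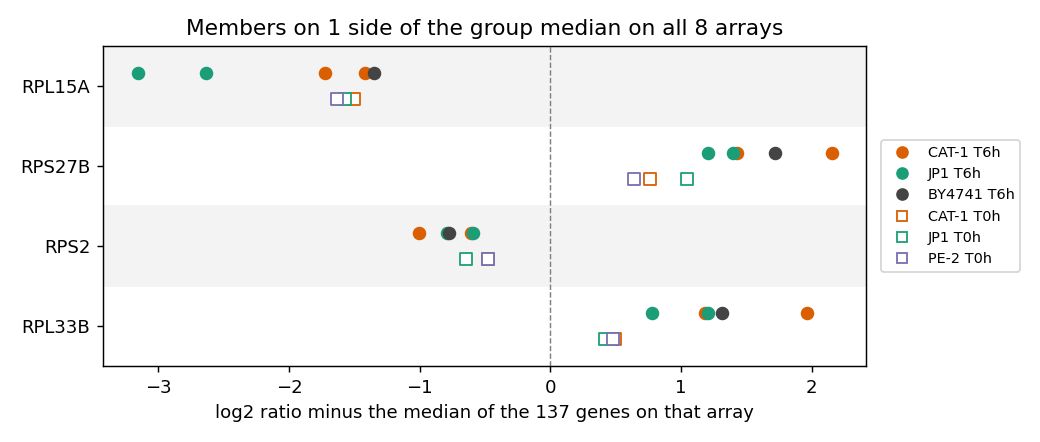
Log2 ratio of 4 genes minus the median of the 137 ribosomal protein genes on the same array (x axis). Filled circles are T6h arrays and open squares T0h arrays, coloured by strain; RPL15A is at least 1.35 below the median on all 8, RPS27B at least 0.64 above it, and RPS2 and RPL33B fall just short of 0.5.

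Most of the genes followed the group from array to array. The correlation of a gene with the median of the others over the 8 arrays had a median of 0.891, with 64 genes at 0.9 or more and 8 under 0.5. The 8 were RPL9A (0.02), RPL7B (0.07), RPL18B (0.15), RPL15B (0.16), RPL41A (0.29), RPS28B (0.34), RPS12 (0.42) and RPL9B (0.45). RPL7B was above background in green on 4 of the 6 arrays of slide 1, the only one of the 137 that was not above it on all 6. The 8 arrays share 1 reference and differ mainly in the level of the whole group, so these correlations are a description.

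Other genes that regulate or work with the ribosome were described as 4 lists, which were not tested against the ribosomal protein genes. Of 12 regulators, STB3, a repressor of ribosome assembly genes, rose at T6h over all arrays (1.67; limma adjusted p = 0.0221) and no other passed. Of 7 chaperones of ribosomal proteins, YAR1, which escorts Rps3, rose (2.21) and SYO1, which escorts Rpl5 and Rpl11, fell (-1.29). Of 13 genes of elongation and termination, EFB1 (1.98) and ANB1 (2.62) rose and HYP2 (-2.56) and HEF3 (-2.26) fell. ANB1 and HYP2 encode the same translation factor for growth without and with oxygen, and they moved oppositely: ANB1 read 1.79 and 1.36 in CAT-1, 3.85 and 3.48 in JP1 and 4.27 in BY4741 at T6h, against -0.01 in CAT-1, 0.57 in JP1 and 0.42 in PE-2 at T0h. HYP2 read -0.87 and -1.92 in CAT-1, 0.05 and -0.95 in JP1 and -2.27 in BY4741 at T6h, against 0.68 in CAT-1, 1.59 in JP1 and 1.82 in PE-2 at T0h. Of the 9 ribosome-associated genes tested, ZUO1, a chaperone at the exit tunnel, rose (1.13). The shares called in these lists are 1 of 12, 2 of 7, 4 of 13 and 1 of 9, where 15.6% of all probes were called either way. STB3, YAR1, SYO1 and ZUO1 did not pass with slide as a block (limma adjusted p between 0.0754 and 0.107) or on slide 1 alone.

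In JP1 and CAT-1, STB3 (1.86), YAR1 (1.99), ZUO1 (1.45), ANB1 (2.34), EFB1 (2.18), EFT2 (1.27) and CAM1 (0.97) rose, and HEF3 (-2.25), HYP2 (-2.06), SYO1 (-1.50) and TSR2 (-1.07) fell. YAR1 rose mostly in CAT-1, where it read 2.60 and 2.78 at T6h and -0.42 at T0h. In JP1 it read -0.05 and 0.45 at T6h and -0.67 at T0h. The difference between these time changes did not pass (limma adjusted p = 0.528). With slide as a block TSR2, EFT2 and CAM1 did not pass, and on slide 1 alone these 3, YAR1 and ZUO1 did not. TSR2, which escorts Rps26, had a time change lower than in BY4741 by -3.02 ± 0.44 (SE; limma adjusted p = 0.00437) in the added test, as did SYO1 (-2.64), IFH1 (-2.54), YEF3 (-2.63) and BCP1 (-1.54), while YAK1 (2.64), STB3 (2.16), CAM1 (2.15) and EFT1 (1.94) were higher. With slide as a block STB3, BCP1 and EFT1 did not pass, and on slide 1 alone TSR2 and YEF3 were the only ones of these 9 to pass. IFH1, the activator of ribosomal protein genes, read 0.88 and 0.36 in CAT-1, 0.32 and -0.95 in JP1 and 2.04 in BY4741 at T6h, against 0.66 in CAT-1, 0.65 in JP1 and 0.57 in PE-2 at T0h. It was highest on the BY4741 T6h array and lowest on a JP1 T6h array. Of other transcription factors of these genes, FHL1 was at -0.02, SFP1 at -0.26 and RAP1 at -1.15 on the BY4741 T6h array. In the industrial strains all 7 chaperones had a time change below that in BY4741 (median difference -1.54), as had 6 of 12 regulators (median 0.06), 5 of 13 translation factors (0.24) and 5 of 9 ribosome-associated genes (-0.38). At T6h, all 7 chaperones (median -0.89) and all 9 ribosome-associated genes (-0.62) were below BY4741 in the industrial strains. None was called by limma, and 1 chaperone and 0 ribosome-associated genes had an unadjusted p under 0.05. At T0h, 7 of 12 regulators, 4 of 7 chaperones, 8 of 13 translation factors and 6 of 9 ribosome-associated genes were called against BY4741, where 32.7% of all probes were. Among them were YEF3 (1.47), HYP2 (1.36), SYO1 (1.58), TSR2 (1.21) and RRB1 (1.11), which were higher, and TEF4 (-1.13), EFB1 (-1.01), EFT1 (-0.98), SCH9 (-0.98), STB3 (-0.93), YAK1 (-0.93) and ZUO1 (-0.90), which were lower.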

How the data were processed

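The scanner images were quantified with Agilent Feature Extraction 10.10.1.1, per the file headers, which gave spot and background brightness as intensity values. The deposited scanner files also hold the software's log10 ratio of red over green and its marks of spot quality. The submitters' processing notes name limma without a version, and the scale, centring and direction of the deposited value table are not stated.

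Here, median intensity values as deposited were used after leaving out spots marked uneven or outlying. They were background-corrected by normexp (offset 50) and normalised within arrays by loess leaving control spots out of the fit, with limma 3.58.1 (R 4.3.3). The files hold no mean signal, which the plan had named. The 2 spots of a probe were averaged, and 5938 of the 6256 probes stayed, those that 3 or more arrays showed above background in red or green. Symbols came from the reference gene table, in which 5756 systematic names were found and 500 were not. The table's gene order gave the neighbours.

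The 6 comparisons and 1 added test used limma's moderated test, two-sided, with Benjamini-Hochberg adjustment over all 5938 probes and a threshold of 0.05. It was run on simulated data with independent noise. Those data held no strain differences, deviation of the shared reference or dim slide, so the run does not bear on these limits. The fold and log2 values are differences of log2 ratios. The number of arrays limits the precision. The genes and lists were chosen with earlier results of these data known. The genes named are, per comparison, up to 12 called each way, the stalk genes, the departing genes, the 6 widest and 3 closest pairs, the extremes on the BY4741 T6h array and up to 4 called each way in each other list. Genes with per-array values or a low correlation beyond these were chosen after their values were seen. A few genes that this rule names are not reported here. Alternatives covered the background correction, normalisation, filter, saturated spots, red channel, slide and each array left out.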

Additional observations from a re-analysis of the deposited data

Results flagged for a closer look

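The time change of many ribosomal protein genes differed between strains under the processing used here. In the test of the difference itself, added after the data were seen, 54 of the 137 genes had a lower change between T6h and T0h in JP1 and CAT-1 than in BY4741 (limma, adjusted p under 0.05). Among all probes, 5.25% had a lower change. The median over the 137 genes of the difference between the changes was -1.55 on the log2 scale. The test rests on 1 BY4741 T6h array, and a dye effect of a gene cannot be told apart from BY4741's change. None of the 54 genes passed with the scanner software's own log ratio, although all 54 kept their sign. The number of genes was between 10 and 68 with 1 array left out, 5 on slide 1 alone and 0 under median centring.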

How the results depend on the processing

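The numbers of genes called depended strongly on the processing, while the medians over the 137 genes mostly kept their sign. Counts under an alternative, here and above, are given without the share of all probes called under it. They do not show whether these genes were called more often than other probes. Without background correction 3 genes rose at T6h over all arrays, 2 rose in JP1 and CAT-1, and 25 had a lower change than in BY4741; the CAT-1 against JP1 time change had a median of -0.54. With the software's own log ratio 4 rose and 1 fell in JP1 and CAT-1, 7 were lower in the industrial strains at T0h, 0 had a lower change than in BY4741, the CAT-1 against JP1 time change had a median of -1.01, and 9 pairs were at least 1 apart. Median centring gave 0 calls over all arrays, 0 and 0 in JP1 and CAT-1, 0 against BY4741's change and 5 lower at T0h; the T0h median changed sign to 0.0070, and the CAT-1 against JP1 medians were -1.21 and, for the time change, -1.44. The cause was not tested. A filter that kept only probes above background in both channels on all arrays left 30 of the 137 genes: 2 rose over all arrays, 4 rose and 4 fell in JP1 and CAT-1 (median 0.16), 3 were higher and 6 lower at T0h, 5 were lower in the industrial strains at T6h, 2 had a lower change in CAT-1 than in JP1 (median -0.98), 17 had a lower change than in BY4741, 26 were past 2-fold in BY4741, 0 pairs were at least 1 apart, and 0 genes departed, although RPL15A was still measured. In the red channel alone 9 fell in JP1 and CAT-1, 10 were lower than BY4741 at T6h, 14 were lower in CAT-1 than in JP1 and 34 had a lower change in CAT-1 (median -1.10). On slide 1 alone 15 rose over all arrays and 5 had a lower change than in BY4741. A departure of 0.5 gave 2 genes.

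Leaving out 1 array at a time gave 1 to 26 genes that rose and 0 to 2 that fell over all arrays (median 0.42 to 0.93). For JP1 and CAT-1 it gave 0 to 19 that rose and 1 to 2 that fell (median 0.049 to 0.70), and at T0h 2 to 16 higher and 2 to 21 lower (median -0.16 to -0.09). It gave 0 to 10 lower in the industrial strains at T6h (median -1.73 to -1.40), 0 to 5 lower in CAT-1 than in JP1 (median -0.90 to -0.50) and 0 to 1 with a lower time change in CAT-1 (median -0.91 to -0.57). Against BY4741's change it gave 10 to 68 (median -1.94 to -1.17). Of the single named genes' values under the alternatives, 1227 kept their call or lack of it, 424 lost it and 3 gained one. No gene changed sign where it was called in the main fit or in the alternative. Sign changes of genes called in neither were not counted. No paired analysis was possible because no groups share 2 replicate numbers.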

Other observations

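Some ribosomal protein genes lie next to each other on a chromosome, and 10 such neighbouring pairs were found among the 137 genes. The correlation of neighbours over the 8 arrays, which share 1 reference, ran between 0.01 for RPS19B with RPL18B and 0.976 for RPS22A with RPL39. RPS15 and RPP2A, both among the genes that rose, are neighbours and had a correlation of 0.937.

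Arrays differed in how alike their ribosomal protein genes were. Across the 137 genes, which are not independent replicates, correlations between pairs of T6h arrays ran between 0.232 and 0.798, between pairs of T0h arrays between 0.571 and 0.849, and between a T6h and a T0h array between 0.0565 and 0.485. EGD2, a subunit of the nascent chain complex at the ribosome, read -4.48 on CAT-1 T6h replicate 5 alone, against -0.50 on the other CAT-1 T6h array. The low value comes from the slide 2 array on which 9.63% of spots were above background in green.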
